A study of Mus musculus with 6 samples.

Results

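Genomic imprinting leaves a gene active on the copy from 1 parent only. Expression of 10 paternally expressed imprinted genes, Igf2, Dlk1, Peg3, Peg10, Mest, Snrpn, Plagl1, Ndn, Impact and Kcnq1ot1, was examined in germline stem (GS) cells, which are cultured mouse spermatogonia with stem cell activity. The genes were chosen by name, and all 10 were found among the 32285 genes of the count table. Expression was measured by RNA-seq in 3 libraries of Space GS cells, frozen for 6 months on the International Space Station (ISS), and 3 libraries of Ground GS cells, frozen for 6 months on Earth. In both groups the cells came from testes of DBA/2 newborn mice with the genotype DBA/Tg14(act-EGFP-OsbY01), an EGFP transgene bred into the DBA/2 background. They had been grown with GDNF and FGF2 on mouse embryonic fibroblasts (MEFs), and RNA was taken the day after thawing without passage. The samples are called biological replicates, but the labels do not tell which libraries share a line or culture, so p-values measure the spread between these libraries.

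The treatment label of all 6 libraries contradicts its title. The groups below follow the titles, which the column names of the table share, and each sign would turn if the treatment label were right. Values by library are given in the order of replicates 1 to 3 of each group. The counts do not separate the parental alleles, so the parent of origin of the RNA was not measured here.

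An imprint is DNA methylation set at a control region in only the egg or only the sperm lineage and kept through later divisions. In the male germline the control regions of Igf2 with H19 and of Dlk1 with Meg3 become methylated before birth, whereas those of the other 8 genes are methylated in oocytes and bare in male germ cells. Spermatogonia therefore carry the same paternal pattern on both chromosomes. Many imprinted genes regulate growth of the fetus and placenta, and several are strongly expressed in embryonic mesenchyme, the source of the feeder cells.

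The upstream sequences of 3 of the genes are shown because Dlk1 and Plagl1 had similar patterns over the libraries that Peg3 did not share. RefSeq windows of 250 bases before the RefSeq transcription start (GRCm38.p6) were available here for 8 of the 10 genes. They are written 5′ to 3′ on the strand of the gene, with CG dinucleotides, the sites of DNA methylation, in capitals. The Dlk1 window lies at chr12:109452573-109452822 (plus strand), the Plagl1 window at chr10:13090582-13090831 (plus strand) and the Peg3 window at chr7:6730420-6730669 (minus strand).
Dlk1: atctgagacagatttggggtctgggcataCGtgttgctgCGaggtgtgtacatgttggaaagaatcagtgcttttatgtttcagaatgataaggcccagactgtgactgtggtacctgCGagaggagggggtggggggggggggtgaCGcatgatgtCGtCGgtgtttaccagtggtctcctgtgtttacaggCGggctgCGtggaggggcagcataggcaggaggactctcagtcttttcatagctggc
Plagl1: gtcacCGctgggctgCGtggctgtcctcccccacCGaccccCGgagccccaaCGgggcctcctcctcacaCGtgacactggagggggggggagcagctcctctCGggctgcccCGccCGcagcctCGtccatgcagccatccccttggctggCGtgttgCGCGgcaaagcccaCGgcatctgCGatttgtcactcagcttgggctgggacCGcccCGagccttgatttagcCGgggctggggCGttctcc
Peg3: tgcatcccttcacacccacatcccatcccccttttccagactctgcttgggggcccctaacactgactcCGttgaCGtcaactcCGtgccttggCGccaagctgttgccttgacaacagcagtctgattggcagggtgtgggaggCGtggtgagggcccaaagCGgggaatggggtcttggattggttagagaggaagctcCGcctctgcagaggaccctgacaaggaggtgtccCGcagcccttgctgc
The Plagl1 window held 19 CG dinucleotides, and 19.7% of all 32851 windows held as many or more. The Dlk1 and Peg3 windows held 8 each, and 43.0% of windows held as many or more, against a median of 6. The hexamer TGCCGC, known as the core of the site bound by the imprint-protecting factor ZFP57 when methylated, was searched on both strands. It occurred 1 time in the Plagl1 window and not in the other 2, whereas 8.68% of all windows held it. Of the other members, only Mest had windows with the hexamer, with 2 matches at its starts near chr6:30737800-30738049. These matches describe letters and not binding. The windows were not matched to the imprint control regions, so a window without the hexamer does not show that a control region lacks it. No link between the sequences and the patterns over the libraries was tested.

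The libraries held 19015985 to 24110916 counts. Markers of germ cells were expressed, since 15 of 15, with Dazl (mean 872.9 CPM) and Uchl1 (672.0 CPM) highest, were above the filter on low counts, and their sum was 4168 to 4245 CPM in Ground and 4194 to 4211 in Space. Zbtb16 had the smallest p of them (log2 fold change 0.11, SE 0.072). CPM is the normalised read count of a gene relative to the library size, after TMM scaling. Fibroblast markers of the feeder were also detected, with 21 of 22 above the filter, none of the 22 at 0 in every library, and a sum of 1043 to 1080 CPM in Ground and 858.4 to 1096 in Space. Fn1 (430.8 CPM) and Col5a1 (271.7 CPM) were highest, so this sum rests largely on them. Their log2 fold changes were -0.093 (SE 0.084) and 0.020 (SE 0.12), and whether their RNA came from feeder cells was not tested. The mean log2 CPM of these 21 markers was 3.69, 3.70 and 3.60 in Ground and 2.71, 3.58 and 3.37 in Space, so that every Space library lay below every Ground library (difference -0.44, 2-sided exact permutation p = 0.1, the smallest possible). Space-1 was the lowest, and without it the difference was -0.19. Of the 21 markers, 20 had a log2 fold change below 0, against 51.3% of all genes, with a median of -0.31. With edgeR 0 of the 21 passed the adjusted threshold, 5 had an unadjusted p under 0.05, against 0.609% of all genes, and 3 did not overlap between the groups, against 3.59%. The markers were read from the same libraries and can vary together, so these counts of markers do not rest on separate observations. All of these counts include Space-1. Loxl1 had the smallest p (log2 fold change -0.76, SE 0.26). Of 9 Sertoli and Leydig cell markers 6 passed the filter, with a sum of 30.6 to 33.96 CPM over all libraries, and Hsd3b1 was at 0 in each. Wt1 (18.2 CPM) and Sox9 (6.90 CPM) were highest of them and Star had the smallest p (log2 fold change -0.16, SE 0.16). Macrophage and endothelial markers summed to 14.1 to 22.6 and 11.5 to 22.0 CPM, with 2 of 6 and 4 of 5 above the filter. Cd68 (18.04 CPM) and Ptprc (0.401 CPM) were highest among the former, Pecam1 (8.20 CPM) and Kdr (4.24 CPM) among the latter. The macrophage sum was thus almost all Cd68, since Csf1r, Adgre1, Lyz2 and Tyrobp had at most 2 counts in any library. Cd68 and Cdh5 had the smallest p in their lists, with log2 fold changes of 0.11 (SE 0.17) and -0.36 (SE 0.61). In these bulk samples, fewer cells of a type and less RNA per cell cannot be told apart.

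All 10 genes were expressed above the filter, from 420 counts in total for Snrpn to 15297 for Igf2. The libraries also held RNA of fibroblast markers, whose origin from the feeder was not tested. How much of each level here and below, H19 included, came from GS cells or feeder cells was not measured. Per transcript length, as length-normalised transcript abundance (TPM), Igf2, a fetal growth factor, was highest with 72.0 ± 5.67 (SD over 6 libraries), and 19.6% of all genes tested had a higher mean. Ndn, the MAGE family protein necdin that restrains growth, followed with 47.1 ± 7.25 TPM, and Mest, an enzyme of the alpha/beta hydrolase fold family, with 24.5 ± 4.32 TPM. This order of Igf2, Ndn and Mest was the same in 6 of 6 libraries. TPM was not scaled by TMM, and mitochondrial RNA made up 2.51% to 11.5% of counts by library. The spread of TPM therefore also reflects the make-up of each library. In Ground-2 the TPM of Igf2 was lowest (63.3), although its CPM was highest there (120.2).

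Mest was also above Dlk1 in 6 of 6 libraries, although their ranges over libraries overlapped. Dlk1, a membrane protein of the Notch ligand-like family, had 15.6 ± 6.38 TPM. Peg10, a gag-pol-like gene derived from a retrotransposon, had 14.4 ± 6.93. Impact, an inhibitor of the activation of the kinase GCN2, had 12.3 ± 1.79, and Peg3, a large zinc finger protein, had 11.7 ± 2.30. These 4 neighbours did not differ beyond their spread, since Dlk1 exceeded Peg10 in 4 of 6 libraries, Peg10 exceeded Impact in 2 of 6, and Impact exceeded Peg3 in 4 of 6.

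Snrpn, which encodes the spliceosomal protein SmN, had 5.18 ± 1.73 TPM and Plagl1, a zinc finger transcription factor that restrains proliferation, had 3.59 ± 1.92, with Snrpn higher in 4 of 6 libraries. Kcnq1ot1 was lowest with 0.262 ± 0.065 TPM, as an unspliced RNA of 93092 bases that is antisense to Kcnq1 and silences its neighbours in cis. Ranked by CPM without length, only 3 of 10 genes kept their place, and Kcnq1ot1 came ahead of Snrpn. TPM divides by all annotated exonic bases of a gene, and which of these were transcribed here was not examined.

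**Figure D1:**
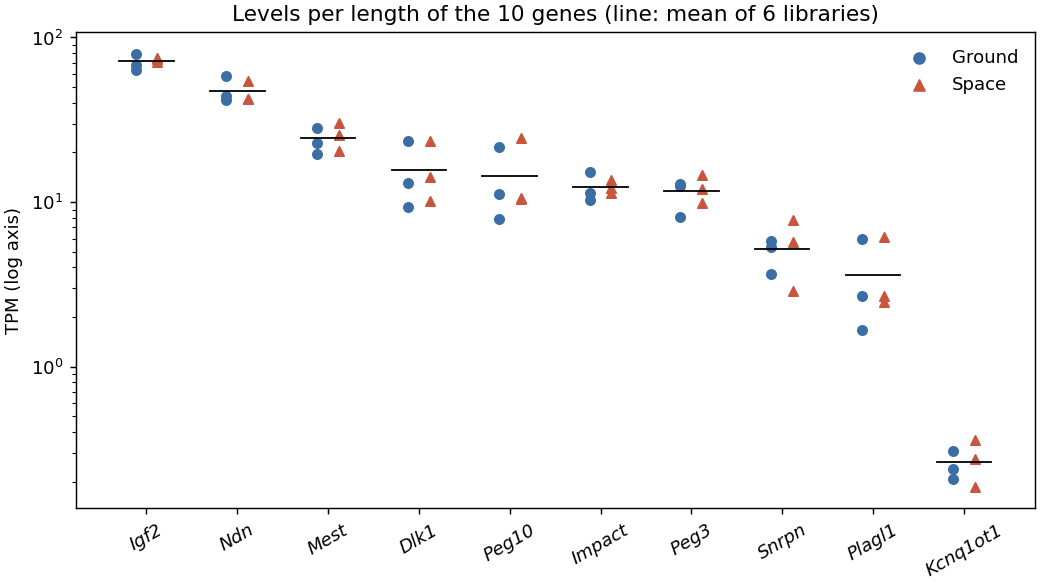
TPM on a log axis for the 10 genes in the order of their mean over 6 libraries (black line), with Ground libraries as circles and Space libraries as triangles. Igf2 lies between 63.3 and 79.5 TPM and Kcnq1ot1 between 0.186 and 0.360 TPM, while Dlk1, Peg10, Impact and Peg3 overlap.

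The study compared Space with Ground GS cells to find genes changed by storage in space. None of the 10 genes passed the test between the groups. With edgeR's quasi-likelihood test 0 of 10 had a Benjamini-Hochberg adjusted p under 0.05 (each adjusted p = 0.9999), as did 0% of the 15104 genes tested, and 0 of 10 had an unadjusted p under 0.05, against 0.609% of all genes. DESeq2 and limma-voom gave 0 of 10 as well, adjusted and unadjusted. With independent libraries and no difference, a share of about 0.05 of genes would have an unadjusted p under 0.05. The 0.609% from edgeR lies well below that. Each library also had its nearest library in the other group, as given below, and what lowered the share was not tested. A count of 0 is therefore weak evidence of no change. The ranges of the groups overlapped in all 10 genes, whereas they did not overlap in 3.59% of genes tested, 1.98% with Space lower and 1.61% with Space higher. In 0 of 10 was the log2 fold change beyond 0.5 in size, against 3.36% of genes. Of the log2 fold changes (Space minus Ground), 5 were above 0 and 5 below 0, with a median of 0.0095, and 51.3% of all genes were below 0 with a median of -0.0020.

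**Figure D2:**
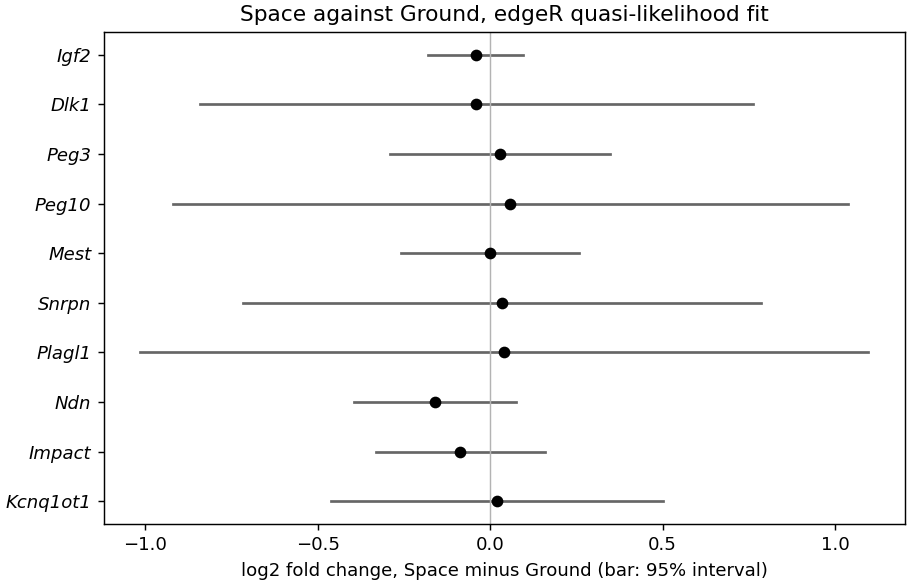
Log2 fold change, Space minus Ground, of each of the 10 genes from edgeR's quasi-likelihood fit over 15104 genes (point) with its 95% interval (bar). Every interval includes 0, and that of Igf2 is the narrowest, from -0.18 to 0.095, and that of Plagl1 the widest, from -1.01 to 1.10.

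The precision differed between genes. Igf2 (ENSMUSG00000048583, GRCm38 chromosome 7, 142650766 to 142666816, minus strand) had 116.1, 120.2 and 112.6 CPM in Ground and 110.7, 119.1 and 109.2 in Space. The groups overlapped, and the highest library was only 1.10 times the lowest, a smaller ratio than in 91.0% of genes tested. The group means were 116.3 ± 3.83 and 113.0 ± 5.35 CPM (SD, n = 3), with a log2 fold change of -0.042 (SE 0.059). Its 95% interval spans 0.884-fold to 1.07-fold.

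The maternally expressed partner of Igf2, the noncoding RNA H19, had a mean of 208.0 TPM. It was counted at 129.0, 171.9 and 136.5 CPM in Ground and 124.5, 177.9 and 123.3 in Space, with Ground-2 and Space-2 highest (log2 fold change -0.040, SE 0.16). Ins2, the adjoining insulin gene, had 1 count in Ground-2 and 0 in the other 5 libraries. Among 11 listed genes for receptors, mRNA-binding proteins and partners of IGF2 signalling, 10 were tested and 0 passed in either direction, with a median log2 fold change of 0.015. Igf1r, the signalling receptor, had 238.3 ± 10.5 CPM (Ground) and 240.0 ± 14.0 (Space), and Igf2r, which removes IGF2, had 337.8 ± 10.1 and 342.4 ± 15.5 (SD, n = 3). Igf2bp1, an mRNA-binding protein named after Igf2 mRNA, had 424.8 ± 73.6 and 437.2 ± 58.1 CPM. Irs1, an adaptor of the insulin and IGF receptors, had the smallest p of the list (log2 fold change 0.27, SE 0.32, edgeR adjusted p = 0.9999).

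Dlk1 (ENSMUSG00000040856, chromosome 12, 109452823 to 109463336, plus strand) varied widely within both groups. It had 34.1, 24.4 and 15.2 CPM in Ground and 14.9, 23.4 and 33.4 in Space. Ground-1 and Space-3 were high and Ground-3 and Space-1 low, so the group means of 24.6 ± 9.46 and 23.9 ± 9.28 CPM were nearly equal (log2 fold change -0.040, SE 0.35, 95% interval -0.84 to 0.76). The feeder fibroblast score was low in Space-1 but not in Ground-3, and its part in this pattern was not tested.

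The noncoding RNAs of the maternally expressed side of the Dlk1 domain were lowest or near lowest in the same libraries. Rian, which hosts small nucleolar RNAs, had 28.2, 24.4 and 16.7 CPM in Ground and 13.9, 23.1 and 26.6 in Space. Meg3 had 10.3, 8.15 and 5.83 CPM in Ground and 4.41, 8.85 and 8.96 in Space, and Mirg, which hosts microRNAs, had 3.01, 1.23 and 0.965 in Ground and 1.03, 2.08 and 2.76 in Space. Thus Meg3 and Rian were lowest in Space-1 and Mirg in Ground-3. Of the 6 genes of the domain, Dlk1 included, 4 were tested and 0 passed, with a median log2 fold change of -0.082. Rtl1, the paternally expressed retrotransposon-like gene, was at 0 in all 6 libraries, which allows up to 0.160 CPM at 3 counts in the shallowest, and Dio3, a thyroid hormone deiodinase, had 2 to 12 counts.

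**Figure D3:**
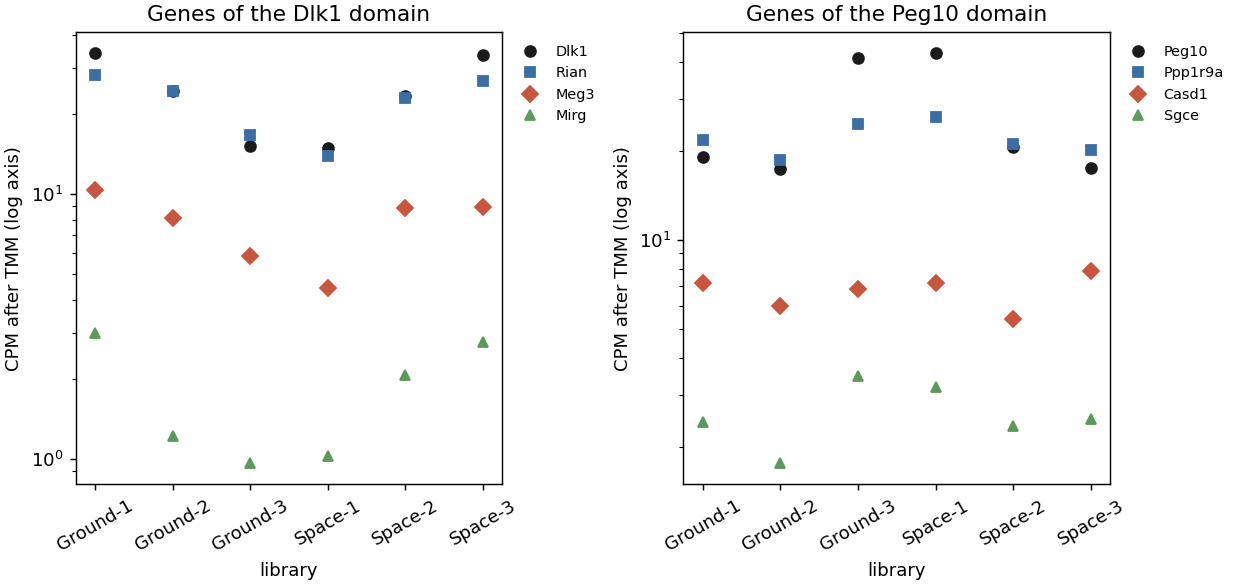
CPM by library on a log axis for Dlk1 and 3 RNAs of its imprinted domain (left) and for Peg10 and 3 genes of its domain (right). Dlk1, Rian and Meg3 are low in Ground-3 and Space-1, where Peg10 stands at 41.3 and 42.9 CPM.

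Plagl1 (ENSMUSG00000019817, chromosome 10, 13060504 to 13131694, plus strand) had the widest spread of the 10 genes. It had 11.9, 6.98 and 3.77 CPM in Ground and 5.02, 6.13 and 12.1 in Space. The highest library, Space-3, was 3.20 times the lowest, Ground-3, and 6.32% of genes tested had a larger ratio. The groups covered almost the same range, with means of 7.53 ± 4.07 and 7.74 ± 3.80 CPM (mean ± SD, n = 3), with a log2 fold change of 0.041 (SE 0.46). If counts were independent molecules, counting error would give a coefficient of variation of about 7.58% at these counts. This is a lower bound, set against the 46.1% observed over 6 libraries.

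Over the 6 libraries the gene most like Plagl1 was Adamts7, a secreted metalloprotease, with a root mean square difference of 0.085 in log2 CPM centred per gene. Egr3 (0.11) and Egr2 (0.13), immediate early zinc finger transcription factors, came next. Egr2 had 77.1, 40.7 and 23.2 CPM in Ground and 27.4, 43.1 and 81.9 in Space. Among the 10 genes Dlk1 was nearest to Plagl1, at 0.20, and Peg10 farthest, at 1.11. These distances describe 6 libraries and were not tested. The neighbours Phactr2 and Ltv1 did not pass the test either, and Ltv1, a ribosome assembly factor, had a ratio of highest to lowest library of only 1.11.

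Peg10 (ENSMUSG00000092035, chromosome 6, 4747306 to 4760517, plus strand) was high in the libraries where Dlk1 and Plagl1 were low. It had 19.1, 17.4 and 41.3 CPM in Ground and 42.9, 20.6 and 17.5 in Space. Ground-3 and Space-1 stood above the other 4 libraries, and 11.8% of genes tested had a larger ratio than its 2.47. With 1 high library in each group the means were 25.9 ± 13.4 and 27.0 ± 13.9 CPM (mean ± SD, n = 3), with a log2 fold change of 0.058 (SE 0.42, 95% interval -0.92 to 1.04). As folds, its bounds are 0.528 and 2.05, so changes within them were not excluded.

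Sgce, which encodes epsilon-sarcoglycan and shares a promoter region with Peg10, was also highest in these libraries, at 3.46 CPM in Ground-3 and 3.17 in Space-1, with 1.76 to 2.48 in the other 4. Ppp1r9a, the neurabin gene, had 24.6 CPM in Ground-3 and 25.9 in Space-1 and 18.6 to 21.8 in the rest. Casd1, a sialic acid acetyltransferase gene, had 5.38 to 7.84 CPM, with Space-3 highest. Of 6 genes of the domain, Peg10 included, 5 were tested and 0 passed, with a median log2 fold change of 0.048. The genes most like Peg10 over the libraries were Pcsk1n, a granin-like protein (root mean square difference 0.069), Sall1, a zinc finger transcription factor (0.091), and Daam2, a formin (0.10). Sall1 had 74.7, 83.1 and 166.0 CPM in Ground and 177.9, 87.2 and 73.7 in Space.

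**Figure D4:**
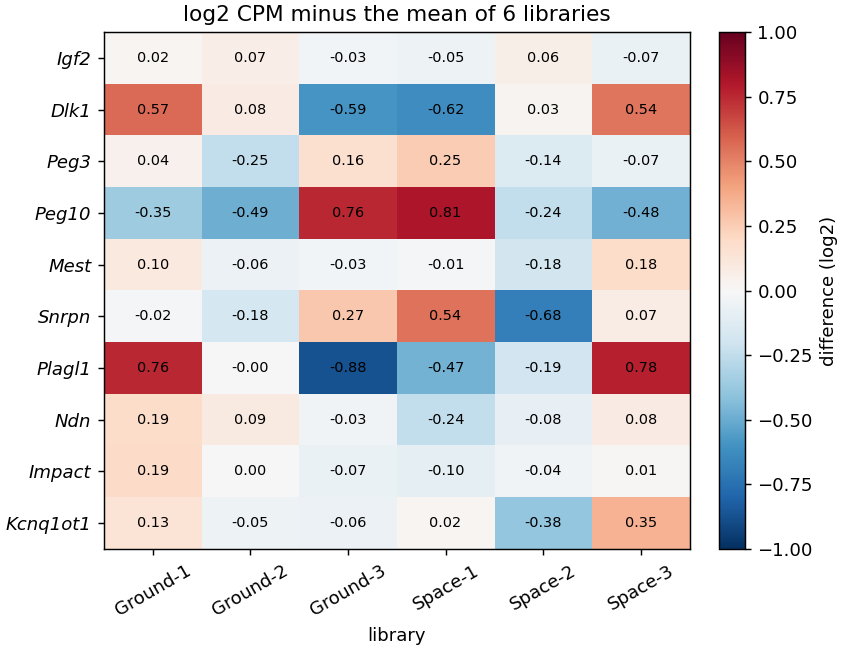
Log2 CPM of each of the 10 genes (rows) in each library (columns) minus its mean over 6 libraries, with the value printed in each cell. Peg10 is 0.76 and 0.81 above its mean in Ground-3 and Space-1, where Dlk1 is at -0.59 and -0.62, while Igf2 stays within -0.069 and 0.070.

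Peg3 (ENSMUSG00000002265, chromosome 7, 6703892 to 6730431, minus strand) had 43.8, 35.9 and 47.7 CPM in Ground and 50.7, 38.7 and 40.6 in Space. Its highest libraries were also Ground-3 and Space-1, but the ratio of highest to lowest was only 1.41. The means were 42.5 ± 6.02 and 43.3 ± 6.45 CPM (mean ± SD, n = 3), with a log2 fold change of 0.028 (SE 0.14). Usp29 and Zim1, the neighbouring genes of the domain, had 3.90 and 2.75 CPM on average and did not pass the test.

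Ndn (ENSMUSG00000033585, chromosome 7, 62346569 to 62350262, plus strand) had the largest difference in size and the smallest p of the 10. It had 54.8, 51.2 and 47.0 CPM in Ground and 40.6, 45.5 and 50.9 in Space. Space-1 and Space-2 lay below the lowest Ground library, and Space-3 lay within the Ground range. The means were 51.0 ± 3.90 and 45.7 ± 5.16 CPM (mean ± SD, n = 3), which is a log2 fold change of -0.16 (SE 0.10, 95% interval -0.39 to 0.076). The edgeR quasi-likelihood test gave an unadjusted p of 0.157 and an adjusted p of 0.9999. Without Space-3 it was -0.24 with an unadjusted edgeR p of 0.0455 and an adjusted p of 0.9999, and without Space-1 it was -0.080. Space-1 was the lowest library for both Ndn and the feeder fibroblast score, and the part of feeder RNA in this value was not tested.

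Snrpn (ENSMUSG00000102252, chromosome 7, 59982495 to 60140219, minus strand) was weakly counted, with 71, 49 and 82 counts in Ground and 106, 34 and 78 in Space. This gave 2.92, 2.61 and 3.60 CPM in Ground and 4.37, 1.81 and 3.12 in Space. The highest and the lowest value were both in Space, and the log2 fold change was 0.034 (SE 0.32). The level is uncertain, because 589 of its 2159 exonic bases are shared with Gm38393 on the same strand. Snurf, whose 216 exonic bases all lie within exons of these genes, had 0 counts in all 6 libraries, and how reads shared between genes were counted is not stated. Snrpb, which encodes the closely related core protein SmB, had 386.9 ± 28.1 CPM (Ground) and 375.4 ± 33.4 (Space), and its mean of 692.8 TPM was far above that of Snrpn. In the list of 10 genes for Sm core proteins and their SMN assembly machinery, all 10 were tested and 0 passed in either direction, with log2 fold changes from -0.045 to 0.048. Snrpg was second in CPM, with 169.3 ± 13.4 and 167.9 ± 15.9, and Snrpd3 had the smallest p (log2 fold change 0.048, SE 0.077).

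In the domain that holds Snrpn and Ndn, 0 of 8 tested genes, both included, passed the threshold. Their log2 fold changes ran from -0.47 for Snhg14, the long noncoding transcript that hosts small nucleolar RNAs (2.09 ± 0.53 CPM, SD, n = 3, in Ground and 1.51 ± 0.27 in Space), to 0.60 for Magel2, a MAGE family gene counted 7 to 31 times per library. Ube3a, a ubiquitin ligase that is imprinted in neurons, had 69.4 ± 2.67 and 66.7 ± 4.65 CPM.

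Mest (ENSMUSG00000051855, chromosome 6, 30723547 to 30748465, plus strand) had 28.4, 25.6 and 26 CPM in Ground and 26.3, 23.4 and 30.2 in Space. Space held both the highest and the lowest library, and the means of 26.7 ± 1.53 and 26.6 ± 3.42 CPM differed by a log2 fold change of -0.00072 (SE 0.11, 95% interval -0.26 to 0.26). Of its 3945 exonic bases 912 overlap Copg2 on the opposite strand, and whether the counting used strand is not given in the sources used here. Copg2, a coatomer subunit gene, showed another order, with 106.7, 131.2 and 146.9 CPM in Ground and 149.4, 123.0 and 99.99 in Space. In the Mest domain 0 of 4 tested genes passed, with a log2 fold change of -0.0066 (SE 0.11) for Cep41, a centrosomal protein gene, and of 0.37 (SE 0.41) for Klf14, a transcription factor gene that had the smallest p.

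Impact (ENSMUSG00000024423, chromosome 18, 12955852 to 12992950, plus strand) varied little, with a highest library 1.22 times the lowest. It had 19.9, 17.5 and 16.6 CPM in Ground and 16.3, 17.0 and 17.6 in Space. The groups overlapped, with means of 18.0 ± 1.70 and 17.0 ± 0.626 CPM (mean ± SD, n = 3), with a log2 fold change of -0.086 (SE 0.11). Without Ground-1, its highest library, the log2 fold change was -0.0068. In the list of 10 genes around GCN1 and GCN2, which sense amino acid shortage, 0 passed in either direction. Daxx was the only gene of the 10 whose groups did not overlap (log2 fold change 0.047, SE 0.056), against 3.59% of all genes tested. It stood on the list but is a histone chaperone and not a known part of the GCN2 pathway. Gcn1, which IMPACT competes with GCN2 to bind, had 261.8 ± 25.8 CPM (Ground) and 274.3 ± 10.9 (Space), and Eif2ak4, which encodes GCN2, had 79.6 ± 10.1 and 78.6 ± 9.79. Eif2s1, which encodes the GCN2 substrate eIF2 alpha, had 134.3 ± 8.70 and 129.8 ± 7.66 CPM. Osbpl1a, the other tested gene of the Impact domain, had a log2 fold change of 0.052 (SE 0.20).

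Kcnq1ot1 (ENSMUSG00000101609, chromosome 7, 143203458 to 143296549, minus strand) had 7.29, 6.39 and 6.36 CPM in Ground and 6.71, 5.06 and 8.48 in Space. The Space libraries lay on both sides of the Ground range, and the means were 6.68 ± 0.528 and 6.75 ± 1.71 CPM (mean ± SD, n = 3), with a log2 fold change of 0.020 (SE 0.21). Kcnq1, the potassium channel gene on the opposite strand, had 2 to 6 counts per library and was not tested. Of the 11 genes of the domain, Kcnq1ot1 included, 9 were tested and 0 passed, with a median log2 fold change of -0.044. Cdkn1c, the cell cycle inhibitor p57, had 41.8 ± 6.94 CPM (Ground) and 40.5 ± 5.83 (Space). Nap1l4, a histone chaperone gene, and Cd81, a tetraspanin gene, were highest in CPM, at 318.8 ± 20.6 and 316.3 ± 16.1 for Nap1l4 and 64.2 ± 5.31 and 61.2 ± 3.44 for Cd81. Phlda2, which restrains placental growth, had the smallest p (4.77 ± 0.655 and 3.77 ± 1.03 CPM, log2 fold change -0.34, SE 0.25, edgeR adjusted p = 0.9999).

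**Figure D5:**
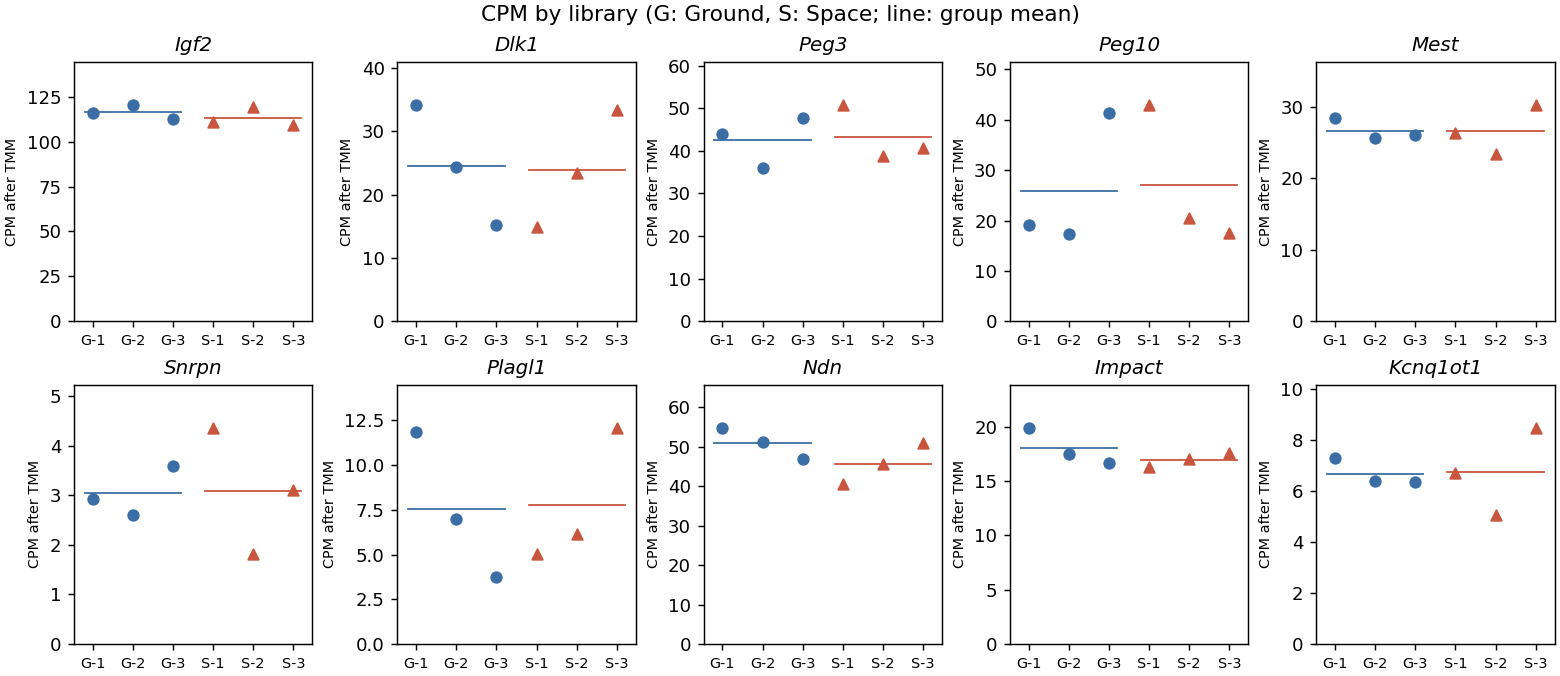
CPM after TMM scaling of each of the 10 genes in the 3 Ground (G, circles) and 3 Space (S, triangles) libraries, with the group mean as a line and each axis starting at 0. The group means nearly coincide for Dlk1, Peg10 and Plagl1, although these genes span 2.29-, 2.47- and 3.20-fold over the libraries.

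Of the 10 genes, 4 (Plagl1, Peg10, Snrpn and Dlk1) had a highest library more than 2 times the lowest, against 18.8% of genes tested. Over the 10 genes the closest libraries were Ground-1 and Space-3 (root mean square difference 0.12 in log2 CPM), then Ground-3 and Space-1 (0.17) and Ground-2 and Space-2 (0.23). Each library therefore had its nearest library in the other group, and the most distant pair was Ground-3 and Space-3, at 0.77. The same 3 pairs were the closest over all genes tested, at 0.25 to 0.32, and no pair of libraries held identical values. The study used 3 lines of Space and Ground GS cells, and the labels do not tie libraries to lines. A fit with these pairs as blocks was not made, because they were seen in the values and not in the labels, and any difference between lines would be part of the errors given above.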

How the data were processed

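The deposited table holds the raw count of each gene in 6 libraries, as whole numbers that the authors neither normalised nor pooled. Per the study's methods, cutadapt trimmed the reads and HISAT2 placed them on mm10, with GENCODE M21 as gene models. The submitters' processing notes name HISAT2 2.2.1, cutadapt 4.1 and HTSeq 2.0.2. Strand setting and treatment of shared reads are not given in the sources used here, and labels and methods name different library kits and sequencers. Counts of such reads are not independent molecules, so counting error is a lower bound.

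Genes were filtered by filterByExpr, scaled by TMM and tested with edgeR 4.0.16 (R 4.3.3) by the 2-sided quasi-likelihood F test, Space against Ground, with no block for replicate number and Benjamini-Hochberg adjustment over 15104 genes and a threshold of 0.05. The SE is the size of the log2 fold change divided by the square root of F. Log2 CPM used a prior count of 2. TPM used the union of GENCODE M21 exons (GRCm38, the assembly of mm10), where 32235 of 32285 identifiers were found. Sequences are from RefSeq.

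The members and gene lists were chosen with earlier results of these data known. Named were the 10 members, from each list the 2 genes of highest mean CPM and the gene of smallest p, genes of the members' domains, and for the 2 members of widest ratio the 3 nearest genes. Other genes named were chosen after their values were seen. The procedure was tested on simulated counts with a smaller spread between libraries than these data, where the biological coefficient of variation was 13.9%. That run therefore does not show how small a change could be found here. The fit was repeated with RLE scaling or total counts, with other filters, by DESeq2 1.42.0 and limma-voom (limma 3.58.1), with a replicate block and without each library.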

Additional observations from a re-analysis of the deposited data

How the results depend on the processing

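The count of 0 of 10 members past the threshold, and of 0 among all genes, held under all 14 alternatives: RLE scaling, total counts, no filter, at least 10 counts in 3 libraries, DESeq2, limma-voom, the replicate block, a threshold of 0.10 and leaving out each library. At an unadjusted p under 0.05 these fits gave 45 to 192 of all genes and 0 or 1 of the members (Ndn, without Space-3). Igf2, Ndn and Impact kept their sign in all 13 fits. Of 130 values, 25 lay on the other side of 0, all of the other 7 genes and none past the threshold. Mest was 0.0024 with RLE, 0.035 with total counts (which put the median of all genes at 0.033), 0.0029 with DESeq2 and 8.4e-05 with limma-voom, and Snrpn was -0.016 with limma-voom. Deviations of same-numbered libraries from their group means correlated at -0.54, 0.33 and -0.61, so the numbers were not taken to pair the libraries. With the replicate block, Snrpn was -0.034 and Kcnq1ot1 -0.0080, and 0 members passed.

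The values depended most on single libraries. Without 1 library the log2 fold change ran from -0.45 (without Space-1) to 0.57 (without Ground-3) for Peg10, from -0.44 (without Space-3) to 0.54 (without Ground-1) for Plagl1 and from -0.37 (without Space-3) to 0.28 (without Ground-1) for Dlk1. It ran from -0.29 to 0.30 for Snrpn (without Space-1 and Space-2), from -0.18 to 0.19 for Kcnq1ot1, from -0.10 to 0.13 for Peg3 and from -0.10 to 0.083 for Mest. It ran from -0.24 to -0.080 for Ndn, from -0.14 to -0.0068 for Impact and from -0.081 to -0.017 for Igf2. Ranked by CPM in place of TPM, 3 of 10 members kept their place. The feeder score difference stayed between -0.62 and -0.19 without 1 library. The cause of these changes was not tested. With 3 libraries per group, changes within the 95% interval of a gene were not excluded.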

Other observations

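Of 24 other paternally expressed genes listed, 18 were tested with edgeR and 0 passed in either direction, with 0 at an unadjusted p under 0.05 and a median log2 fold change of 0.049, against -0.0020 over all genes tested. Of 30 maternally expressed genes, 25 were tested and 0 passed, also with 0 unadjusted, with a median of -0.044. Whether each listed gene is imprinted in these cells was not measured. The paternally expressed genes of highest CPM in the list were Sfmbt2, a Polycomb-related gene, with 245.6 ± 13.2 CPM (Ground) and 249.7 ± 11.8 (Space), and Jade1, with 144.9 ± 6.60 and 146.2 ± 4.89 (SD, n = 3). Nnat, a small membrane proteolipid gene, and Rasgrf1, a guanine nucleotide exchange factor gene with a paternally methylated control region, were picked out after their values were seen. Nnat had 11.8, 11.7 and 34.9 CPM in Ground and 33.6, 15.1 and 11.8 in Space, so that it was high in the libraries where Peg10 was high. Rasgrf1 had 4.16, 2.77 and 0.833 CPM in Ground and 0.947, 2.61 and 3.999 in Space, low in the libraries where Dlk1 and Plagl1 were low. Neither pattern was confined to imprinted genes. The germ cell marker Etv5 had 258.8, 201.8 and 93.03 CPM in Ground and 99.08, 194.7 and 261.8 in Space. Nanos2, another such marker, had 4.775, 5.165 and 12.14 CPM in Ground and 11.37, 6.394 and 5.599 in Space. The marker Ddx4 varied little, with a highest library 1.12 times the lowest.

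Of 18 listed factors for setting, protecting or removing methylation at imprinted regions, 18 were tested and 0 passed with edgeR, and 1 had an unadjusted p under 0.05. This was Tet2, a DNA demethylation enzyme, with 1.03 ± 0.18 CPM (Ground) and 1.83 ± 0.56 (Space; mean ± SD, n = 3), with a log2 fold change of 0.82 (SE 0.32; adjusted p of 0.9999 from edgeR), higher in every Space library than in every Ground library, as 1.61% of all genes were. Those of highest CPM were Dnmt1, the maintenance methyltransferase, and Trim28, the corepressor that acts with ZFP57, with mean levels of 877.4 and 767.1 CPM. Zfp57 itself had 23.8, 18.4 and 15.4 CPM in Ground and 16.1, 20.1 and 23.6 in Space.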
